A study of Sus scrofa with 9 samples.

Results

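The genes described here are 7 pig genes of cell survival and cell death: BCL2, BCL2L1 and MCL1, which hold mitochondria intact, BAX, which opens them, the death receptor FAS, and the caspases CASP8 and CASP1. They were read on 9 single-colour microarrays of T cells sorted from the blood of sows. A probe was taken for one of these genes when the sequence accession that the array gives it, without version, belonged to that gene in the RefSeq annotation of the pig. By this rule 7 of 43603 probes were members, for 4 of the 7 genes: 1 for BCL2L1, 2 for FAS, 3 for CASP8 and 1 for CASP1. BCL2, MCL1 and BAX received no probe by this route and were not analysed here.

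The sorted fractions were CD3+CD4+CD8+ cells (DP), CD3+CD4+ cells (CD4 fraction) and CD3+CD8+ cells (CD8 fraction), with 3 arrays each. All came from blood mononuclear cells of sows isolated on Percoll, a density gradient, and no treatment, strain or age is given in the labels. The study set DP against each of the other fractions, and the CD4 fraction was also set against the CD8 fraction here. RNA was amplified from 25 ng before labelling with Cy3. The labels call the arrays biological replicates without naming animals, so that a p-value measures the spread between these samples.

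Apoptosis can start at the cell surface or in the mitochondrion. On the surface, FAS ligand clusters FAS, the adaptor FADD recruits caspase-8, and caspase-8 cuts the executioner caspases, while CFLAR holds caspase-8 in check. In the mitochondrial route, proteins of the BCL2 family decide whether BAX and its relatives release cytochrome c. FAS is known as a receptor that activated and memory T cells carry at the surface and that limits their numbers after a response. Caspase-1 belongs to the inflammasome, where it matures interleukin-1β and interleukin-18, and is best known from myeloid cells.

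Levels are log2 of the processed signal relative to the 75th percentile of the array, so that 0 is the percentile itself. They compare a probe between arrays and not one probe with another. A spot is well above background when the scanner software found its signal clearly over the local background. Testing required a signal well above background on every array of 1 or more fractions, which 16026 probes met. A probe was called when its p-value from limma, a linear model fitted over all tested probes, was below 0.05 after Benjamini-Hochberg adjustment over all of them.

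The 75th percentile of the signal spanned 19.0 to 42.5 for DP, 15.2 to 84.1 for CD4 and 18.4 to 29.7 for CD8 arrays, and 32.6% to 53.7% of probes were well above background on an array. All 6 T cell genes on the array were well above background wherever they had a value, and 1 of them, CD2, had none on DP replicate 2. The CD4 gene averaged 2.14 ± 0.91 for DP, 1.92 ± 0.44 for CD4 and -2.04 ± 1.24 for CD8 cells, and CD8A averaged 3.47 ± 0.76 for DP, 0.27 ± 0.67 for CD4 and 5.35 ± 0.57 for CD8 cells (SD, n = 3). Both sorting markers thus followed the labels. The arrays lay on 3 slides, and DP replicate 1 was alone on its slide. Slide 2 held 4 arrays, DP replicate 2, CD4 replicate 2 and CD8 replicates 1 and 2, and slide 3 held the other 4. In bulk RNA, fewer cells that express a gene and less of its RNA per cell cannot be told apart.

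Across the member genes, FAS was the one whose levels in DP stood clear of both other fractions on every array, with about 5 times the signal of the CD4 fraction, but the difference did not pass the adjustment over all probes. CASP8 was measured in all fractions at like levels by 1 of its probes, while another of its probes placed the DP arrays above the rest. BCL2L1, the survival gene that has a probe, stayed below the background criterion everywhere. CASP1 was well above background on 3 of 9 arrays, 1 in each fraction. No member probe was called, in DP against CD4 (0 of 5, where 0.293% of all tested probes were called), in DP against CD8 (0 of 5, against 0.312%) or in CD4 against CD8 (0 of 5, against 0.437%). The F test over the 3 fractions called 0 of 5 as well, against 0.612% of all tested probes. With replicate number as a block, the count over all probes in DP against CD8 was 83 in place of 50, and still held no member probe. The numbers are not shown to pair the arrays in any comparison. In DP against CD4 the block calls FAS, with a limma adjusted p of 0.0285, but of 0.13 with the value table's CD8 numbering. Both are given among the processing alternatives. Leaving out DP replicate 1 left 2 calls in DP against CD4, in place of 47, and 1 call in DP against CD8.

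At an unadjusted p below 0.05, limma counted 2 of 5 member probes in DP against CD4 (4.84% of all tested probes), the same 2 in DP against CD8 (6.53%) and 0 in CD4 against CD8 (4.54%). Both were FAS probes, and they were also the 2 of 5 at an unadjusted p below 0.05 in the F test (6.18% of all tested probes). The median difference of the 5 member probes was 0.97 for DP minus CD4, 1.03 for DP minus CD8 and -0.30 for CD4 minus CD8 on the log2 scale. Over all tested probes the medians were -0.02, -0.03 and -0.01. These summaries are a description, since 5 probes stand for only 2 genes. The second FAS probe and the second CASP8 probe passed the filter through their DP arrays alone, and the third CASP8 probe through its CD8 arrays alone.

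BCL2L1 encodes BCL-xL, which keeps mitochondria closed and is a survival factor of lymphocytes. Its probe read -2.25, -4.57 and -3.63 in DP, as against -5.44, -3.11 and -4.11 in CD4 and -3.27, -3.68 and -4.19 in CD8 cells. None of the 9 spots was well above background, so that these values have no order and no difference was tested. The level of BCL2L1 was below what these arrays could resolve in every fraction.

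FAS, the receptor for FAS ligand, was well above background on all 9 arrays by its probe with the highest mean. That probe read 2.45, 2.41 and 2.02 in DP, as against -0.20, 0.38 and -0.52 in CD4 and 1.24, 1.05 and -0.83 in CD8 cells. Every DP array lay above all 6 others, and the CD4 and CD8 arrays overlapped. The 3 DP arrays spanned a narrower range than the CD8 arrays, of which replicate 3 lay as low as the CD4 fraction.

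The FAS means were 2.29 ± 0.24 for DP, -0.11 ± 0.46 for CD4 and 0.49 ± 1.14 for CD8 cells (SD, n = 3). DP minus CD4 was 2.40 (SE 0.55, 95% interval 1.22 to 3.58), a 5.29-fold difference with an interval of 2.33-fold to 11.98-fold. Its limma p was 0.000734 and its adjusted p 0.107, which placed it 110th of the 16026 probes by p. It therefore did not pass the threshold, although the interval of this probe taken alone lies above 0.

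For DP minus CD8, FAS differed by 1.80 (SE 0.55, 95% interval 0.62 to 2.98), or 3.49-fold, with a limma p of 0.00576 and an adjusted p of 0.335. After normexp and quantile normalisation the differences were 1.24 for DP minus CD4 and 0.99 for DP minus CD8. For CD4 minus CD8 the difference was -0.60 (95% interval -1.78 to 0.58, limma adjusted p = 0.999). The order of the means was DP, CD8, CD4, and the last pair did not differ beyond its spread. CD8 replicate 3 set much of that spread: without it, limma gave DP minus CD4 the same 2.40 with an adjusted p of 0.0327, DP minus CD8 was 1.15 with an adjusted p of 0.434, and CD4 minus CD8 was -1.25 with an adjusted p of 0.42.

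Within slides the direction of FAS was the same. DP minus CD4 was 2.02 on slide 2 and 2.38 on slide 3, and DP minus CD8 was 1.26 on slide 2 and 2.84 on slide 3. With slide as a block, DP minus CD4 was 2.14 with a limma adjusted p of 0.302 and DP minus CD8 was 1.91 with an adjusted p of 0.371, and DP replicate 1 carries no weight in these because it has no partner on its slide. CD4 minus CD8 turned sign between slides, at -0.76 on slide 2 and 0.47 on slide 3.

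The second FAS probe was well above background on the 3 DP arrays and on no other array. It read -0.15, 0.30 and -0.01 in DP, as against -3.18, -1.10 and -1.87 in CD4 and -1.03, -2.31 and -1.91 in CD8 cells. Here too every DP array lay above the others. This pattern of detection, all DP arrays and no other, was found in 19 probes, or 0.119% of those tested. The probe passed the filter through its DP arrays alone, so that its order and this share are a description and no second test of FAS.

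The CD4 and CD8 values of the second FAS probe are undetected signals, so that the size of its differences is uncertain. As a description, the fitted log2 difference was 2.10 for DP minus CD4 (limma adjusted p = 0.336) and 1.80 for DP minus CD8 (limma adjusted p = 0.517). A second estimate raised undetected values to the dimmest signal that still counted as above background on their array, where they lay below it. DP was then 4.18-fold above the CD4 fraction and 2.99-fold above the CD8 fraction. Neither is a lower limit, since an undetected value can lie above that dimmest signal, as on CD4 replicate 1. After normexp and quantile normalisation the same probe differed by only 0.37 on the log2 scale for both comparisons. The 2 FAS probes correlated at r = 0.81 over the 9 arrays, as a description of probes that share the arrays and the target.

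**Figure D1:**
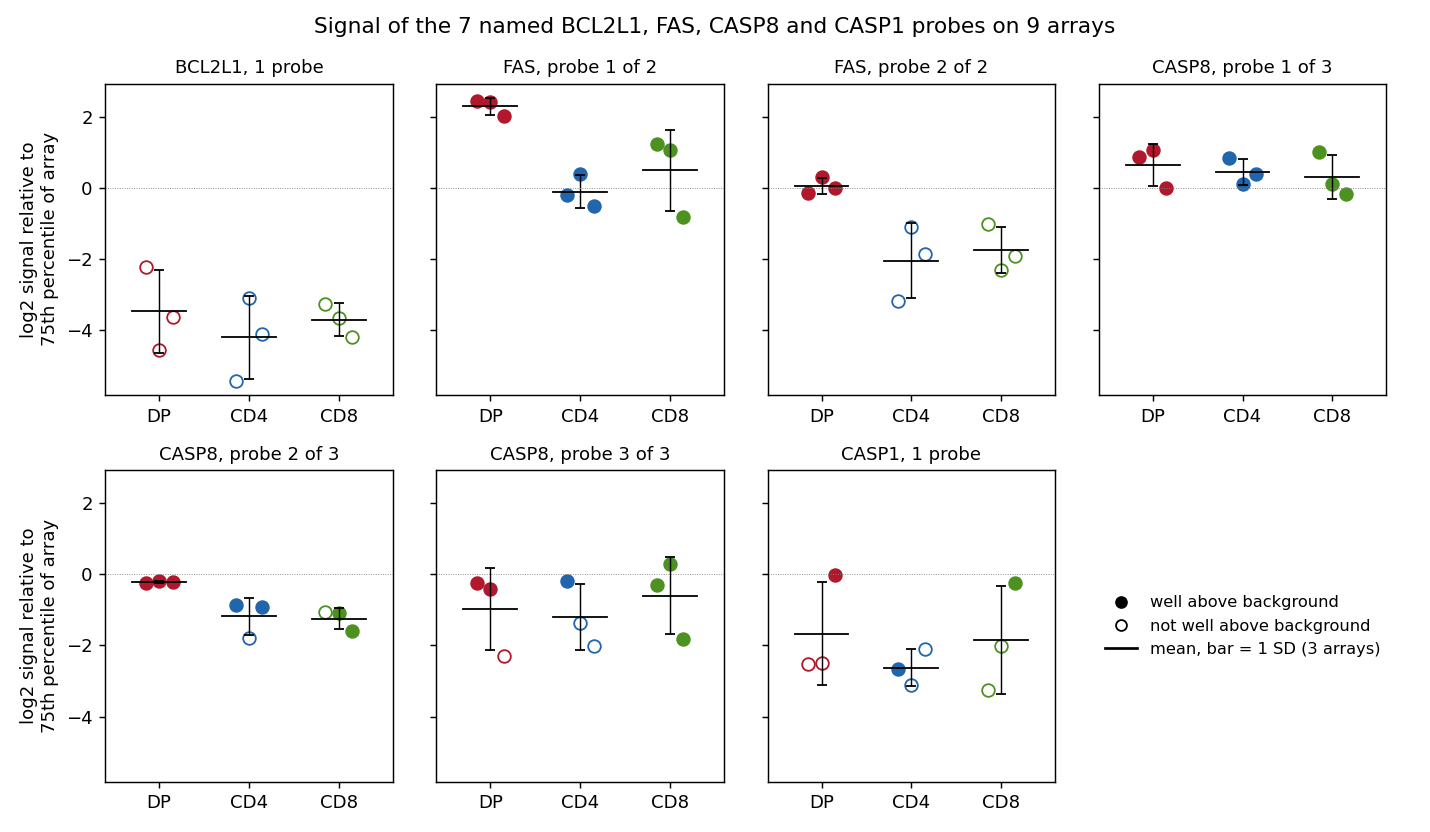
Level of each named probe of BCL2L1, FAS, CASP8 and CASP1, as log2 signal relative to the 75th percentile of the array (y axis), by fraction (x axis). Points are arrays, filled where well above background; lines are means and bars 1 SD of 3 arrays. The first FAS probe reads 2.02 to 2.45 on DP arrays and at most 1.24 on the others, and BCL2L1 has no filled point.

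CASP8 encodes caspase-8, the protease that FAS and other death receptors switch on and that also has a role in keeping T cells alive after activation. The probe with the highest mean passed the background criterion on all 9 arrays. It read 0.87, 1.07 and -0.02 in DP, as against 0.83, 0.09 and 0.39 in CD4 and 1.00, 0.10 and -0.19 in CD8 cells. The 3 fractions overlapped throughout.

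For this CASP8 probe, DP minus CD4 was 0.20 (95% interval -0.85 to 1.25) and DP minus CD8 was 0.34 (95% interval -0.71 to 1.39), with limma adjusted p = 1 for both. CD4 minus CD8 was 0.14 (95% interval -0.91 to 1.19, limma adjusted p = 0.999). The intervals leave room for up to 2.38-fold higher levels in DP than in CD4 cells and 2.62-fold higher than in CD8 cells, so that equal levels are not shown. Without CD8 replicate 3, CD4 minus CD8 was -0.11, so that even its sign rests on single arrays.

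The second CASP8 probe was well above background on 3 DP, 2 CD4 and 2 CD8 arrays. It read -0.24, -0.17 and -0.23 in DP, as against -0.85, -1.78 and -0.92 in CD4 and -1.05, -1.08 and -1.59 in CD8 cells. All DP arrays lay above all others, close together, which is a description, since the probe passed the filter through its DP arrays alone. DP minus CD4 was 0.97 (SE 0.50, 95% interval -0.11 to 2.04, limma adjusted p = 1) and DP minus CD8 was 1.03 (SE 0.50, 95% interval -0.05 to 2.10, limma adjusted p = 0.804), while CD4 minus CD8 was 0.06.

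The third CASP8 probe was well above background on 2 DP, 1 CD4 and all 3 CD8 arrays. It read -0.24, -0.40 and -2.31 in DP, as against -0.20, -1.36 and -2.02 in CD4 and -0.31, 0.30 and -1.81 in CD8 cells. Replicate 3 was the lowest in each fraction. These 3 arrays were on slide 3, and so was CD4 replicate 1, which was the highest of its fraction. DP minus CD4 was 0.21, DP minus CD8 -0.38 and CD4 minus CD8 -0.59, and none was near the threshold (limma adjusted p of at least 0.999). This probe passed the filter through its CD8 arrays alone, so that its differences are a description.

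The 3 CASP8 probes thus gave different pictures. The first correlated with the second at r = 0.52 and with the third at r = 0.60 over the 9 arrays. Which transcript each probe reads was not tested. In all, 3 of the 5 tested member probes, both FAS probes and the second CASP8 probe, had every DP array above all 6 others, against 1.6% of all tested probes (257 probes), and 2 of these 3 entered the test through their DP arrays alone. The same 3 of 5 make up the probes with DP wholly above CD4 (5.22% of all tested probes) and wholly above CD8 (4.59%).

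**Figure D2:**
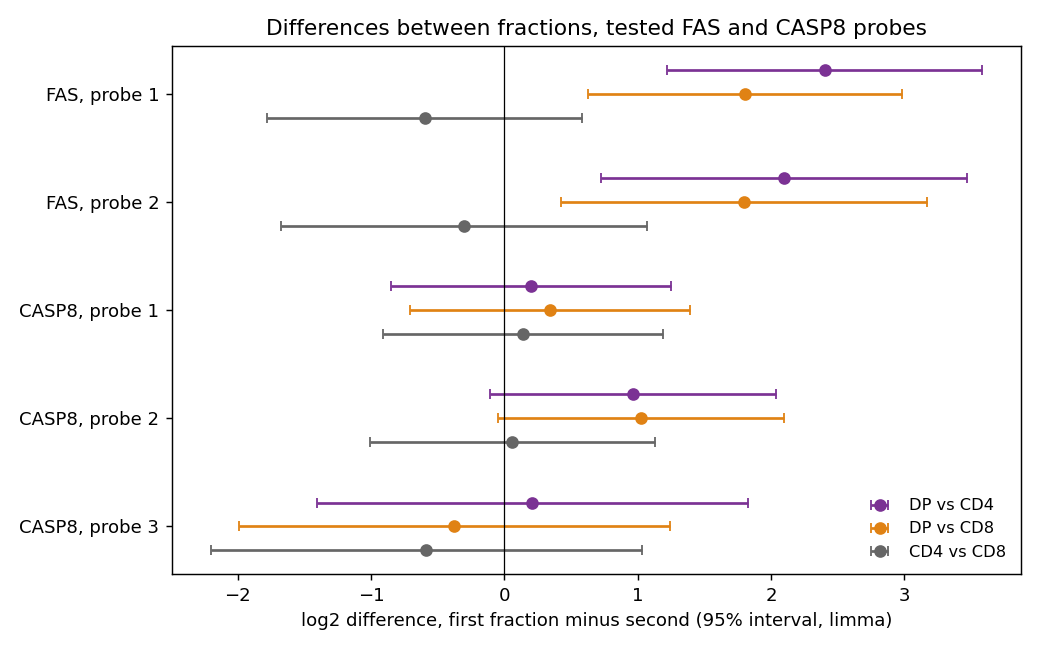
Difference between fractions for the 5 tested FAS and CASP8 probes (x axis, log2, first fraction minus second), one row per probe, with limma's 95% interval as bars. Both FAS probes lie above 0 in DP vs CD4 and DP vs CD8, at 1.80 to 2.40, whereas every CASP8 interval includes 0. The second FAS and second CASP8 probes passed the filter through their DP arrays alone, and the third CASP8 probe through its CD8 arrays alone. The intervals of these probes are a description and no second test.

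CASP1, the inflammasome caspase, read -2.52, -2.50 and -0.0043 in DP, as against -2.67, -3.11 and -2.09 in CD4 and -3.27, -2.02 and -0.25 in CD8 cells. It was well above background on DP replicate 3, CD4 replicate 1 and CD8 replicate 3, and its highest values were those of DP replicate 3 and CD8 replicate 3. The probe did not enter the test. IL1B, the cytokine that caspase-1 matures, was at 0.19 on DP replicate 3 and 0.18 on CD8 replicate 3 and at -0.48 or lower on each of the other 7 arrays, and it was untested too.

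Markers of monocytes and granulocytes were read beside CASP1. Of 16 such genes, 11 had a probe, and 2 to 6 of them were well above background on an array of each fraction. Their summed signal relative to the 75th percentile was 2.90, 1.45 and 9.56 in DP, as against 3.46, 3.58 and 4.22 in CD4 and 12.2, 5.65 and 9.73 in CD8 cells. FCER1G was well above background on 8 of 9 arrays, LYZ on up to 7 by 1 of its probes, and TYROBP and S100A12 on up to 6. S100A8 and S100A9, abundant genes of these cells, were not above it on any. In DP the sum was highest on replicate 3, where CASP1 was also highest, whereas in CD8 cells it was highest on replicate 1, where CASP1 was lowest. Its part in the CASP1 values was not tested.

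Markers of other cell types were summed in the same way. Natural killer genes (5 of 9 on the array, 2 to 4 well above background), which cytotoxic T cells share, summed to 43.5 to 112.5 in DP, as against 6.04 to 14.7 in CD4 and 31.0 to 81.4 in CD8 cells. Most of this sum came from FCGR3A, which averaged 5.87 in DP, 3.06 in CD4 and 5.145 in CD8 cells. KLRK1 averaged 2.22, -2.98 and 3.39 and NKG7 2.38, 0.78 and 2.83, so that both were lower in DP than in CD8 cells. NCR1 was well above background on 0 arrays and KLRB1 on 1. B cell genes (3 of 9 on the array, 1 or 2 well above background) summed to 0.437 to 2.86 in DP, as against 1.09 to 2.31 in CD4 and 5.40 to 12.4 in CD8 cells. Platelet genes (3 of 5 on the array, 2 or 3 well above background) lay between 1.12 and 3.57 on all arrays. The monocyte and granulocyte sum of DP overlapped both other fractions. The part of these cells in the FAS values was not tested.

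The rest of the pathway was read from 10 lists with 80 genes, of which 29 had a named probe and 18 were tested. Besides FAS and CASP8 these were 16 genes with 41 tested probes. None of the 16 was called by limma in any comparison, and none of their 41 probes, with smallest adjusted p-values of 0.177 in DP against CD4, 0.122 in DP against CD8 and 0.576 in CD4 against CD8. At an unadjusted p below 0.05, the probes counted were 3 of 41 in DP against CD4 (4.84% of all tested probes), 5 of 41 in DP against CD8 (6.53%) and 1 of 41 in CD4 against CD8 (4.54%). In DP against CD4 these were probes of TNF and TNFSF12, and in DP against CD8 of TNF, BIRC5 and CFLAR. The probe in CD4 against CD8 was the same CFLAR probe, which also gave the limma adjusted p-values of 0.122 and 0.576. It passed the filter through its DP arrays alone, so that its p-values are a description. With 1 probe per gene, the one highest on average, the difference was positive for 9 of 16 genes in DP minus CD4, with a median of 0.05, for 11 of 16 in DP minus CD8, with a median of 0.17, and for 10 of 16 in CD4 minus CD8, with a median of 0.13.

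Of the death ligands, 5 of 6 had a probe and 3 were tested. TNF, the cytokine that signals survival or death through its receptors, differed most in the list by the F test. Its probe with the highest mean read 3.73, 2.76 and 2.02 in DP, as against 1.01, 0.60 and -0.14 in CD4 and 3.15, -0.998 and -0.48 in CD8 cells. DP lay above CD4 without overlap, as was the case for 5.22% of all tested probes, whereas CD8 replicate 1 lay within the DP range. The difference was 2.35 (SE 0.88) for DP minus CD4, with a limma adjusted p of 0.651, and 2.28 for DP minus CD8, with an adjusted p of 0.615. Without CD8 replicate 1, DP minus CD8 was 3.57 with a limma adjusted p of 0.0473. Without CD8 replicate 3 it was 1.76 with an adjusted p of 0.59. With slide as a block, DP minus CD8 was 1.97 (limma adjusted p = 0.983) and DP minus CD4 was 1.76, and neither was called.

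A second TNF probe read 2.79, 2.06 and 2.56 in DP, as against 0.52, -0.15 and 0.11 in CD4 and 2.00, 0.58 and -0.70 in CD8 cells. Every DP array lay above the 6 others, as for FAS and for 1.6% of all tested probes. DP minus CD4 was 2.31 (SE 0.59), or 4.96-fold, with a limma adjusted p of 0.177, and DP minus CD8 was 1.85 with an adjusted p of 0.409. FASLG, the ligand of FAS, was below the background criterion on all arrays, so that ligand and receptor could not be compared. TNFSF10, or TRAIL, differed by 0.53 for DP minus CD4 and 0.46 for DP minus CD8, and TNFSF12 by 1.16 and 0.25, with limma adjusted p = 1 for all 4 differences.

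Among the other receptors, TNFRSF1A, the main receptor of TNF, read 8.31, 8.98 and 6.33 in DP, as against 9.22, 7.07 and 6.35 in CD4 and 7.67, 8.75 and 7.72 in CD8 cells. The fractions overlapped, with differences of 0.33 for DP minus CD4 and -0.18 for DP minus CD8 (limma adjusted p = 1 for both). The sign of the second turned with the scaling, at 0.19 after normexp and quantile normalisation and 0.18 in the deposited value table. TNFRSF1B and TNFRSF21 never passed the background criterion.

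CFLAR encodes c-FLIP, the inhibitor that sits beside caspase-8 on death receptors. Its probe with the highest mean read 2.50, 2.40 and 2.38 in DP, as against 2.86, 2.14 and 2.11 in CD4 and 2.48, 1.92 and 2.14 in CD8 cells. Here the fractions overlapped, with differences of 0.06 for DP minus CD4 and 0.24 for DP minus CD8 (limma adjusted p = 1 for both). A further CFLAR probe, taken after its values were seen, was well above background on all 9 arrays. It read 2.12, 1.490 and 1.72 in DP, as against 1.09, 1.12 and 1.02 in CD4 and 1.488, 0.64 and 1.12 in CD8 cells. Every DP array lay above the others, as for 1.6% of all tested probes, though barely above CD8 replicate 1. Its differences were 0.70 for DP minus CD4 and 0.69 for DP minus CD8 (SE 0.40), and neither was called. By yet another probe the fractions overlapped, with differences of 0.40 and 0.185.

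Another CFLAR probe, singled out after its values were seen, was well above background on 3 DP, 2 CD4 and 0 CD8 arrays. It read 0.66, -0.54 and -0.39 in DP, as against -0.79, -0.97 and -0.95 in CD4 and -2.69, -3.12 and -1.97 in CD8 cells. With undetected values raised as for the second FAS probe, DP was 3.24-fold above CD8, which is no lower limit. This is a description with no test, since the probe passed the filter through its DP arrays alone. FADD, the adaptor between FAS and caspase-8, was well above background on 6 of 9 arrays by 1 probe and on none by the other, and was not tested.

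Besides CASP8, CASP10 was tested among the caspases, a close relative of caspase-8 on the same receptors. Its probe with the highest mean read 7.85, 7.71 and 8.99 in DP, as against 8.22, 8.02 and 8.66 in CD4 and 7.63, 7.63 and 8.99 in CD8 cells. Differences were -0.12 for DP minus CD4, 0.10 for DP minus CD8 and 0.22 for CD4 minus CD8, all with a limma adjusted p of at least 0.999.

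In the BCL2 family, the survival gene BCL2A1 read 2.04, 2.27 and 0.82 in DP, as against 2.65, 1.13 and 1.22 in CD4 and 2.04, 2.32 and 1.94 in CD8 cells. It was the single survival gene tested, and its differences of 0.04 for DP minus CD4, -0.39 for DP minus CD8 and -0.44 for CD4 minus CD8 had limma adjusted p-values of at least 0.999. Of the BH3-only proteins, which oppose the survival proteins, BCL2L11, or BIM, read -0.29, 0.60 and 0.16 in DP, as against 0.87, 0.13 and -1.36 in CD4 and 0.11, -0.93 and -0.41 in CD8 cells. DP minus CD4 was 0.28 and DP minus CD8 0.57 (limma adjusted p = 1 for both). PMAIP1, or NOXA, differed by -0.25 for DP minus CD4 and 0.04 for DP minus CD8.

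BIRC5, or survivin, is an inhibitor of apoptosis protein made mainly by dividing cells. It read 2.72, 1.36 and 1.62 in DP, as against 1.06, 1.82 and -0.68 in CD4 and -1.14, 1.57 and -2.03 in CD8 cells, so that CD8 replicate 2 lay within the DP range. It was well above background on 3 DP, 3 CD4 and 1 CD8 arrays, so that the CD8 mean rests mostly on dim signals. DP minus CD8 was 2.43 (SE 0.85, limma adjusted p = 0.513), and between 1.68 without CD8 replicate 3 and 3.49 without CD8 replicate 2, and DP minus CD4 was 1.16 (limma adjusted p = 1). A second BIRC5 probe gave 2.24 for DP minus CD8 (limma adjusted p = 0.743) and 0.98 for DP minus CD4. XIAP, which blocks caspases directly, differed by -0.09 for DP minus CD4 and -0.08 for DP minus CD8. By another XIAP probe the differences were -2.25 and -1.01 (limma adjusted p = 1 for both), with 3.01 on CD4 replicate 2 and at most -0.75 on every other array.

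The mitochondrial list held no member that stood out. VDAC2, a channel of the outer mitochondrial membrane, differed by -0.01 for DP minus CD4 and -0.50 for DP minus CD8, and 4 of the 8 genes of that list were tested. NLRP3, a sensor of the inflammasome that CASP1 belongs to, read -0.95, -0.95 and 0.60 in DP, as against 0.04, 0.12 and 0.41 in CD4 and -0.90, -0.74 and -0.75 in CD8 cells. The CD4 arrays lay above the CD8 arrays without overlap, as was the case for 3.78% of all tested probes, with a difference of 0.99 for CD4 minus CD8 (limma adjusted p = 0.999).

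**Figure D3:**
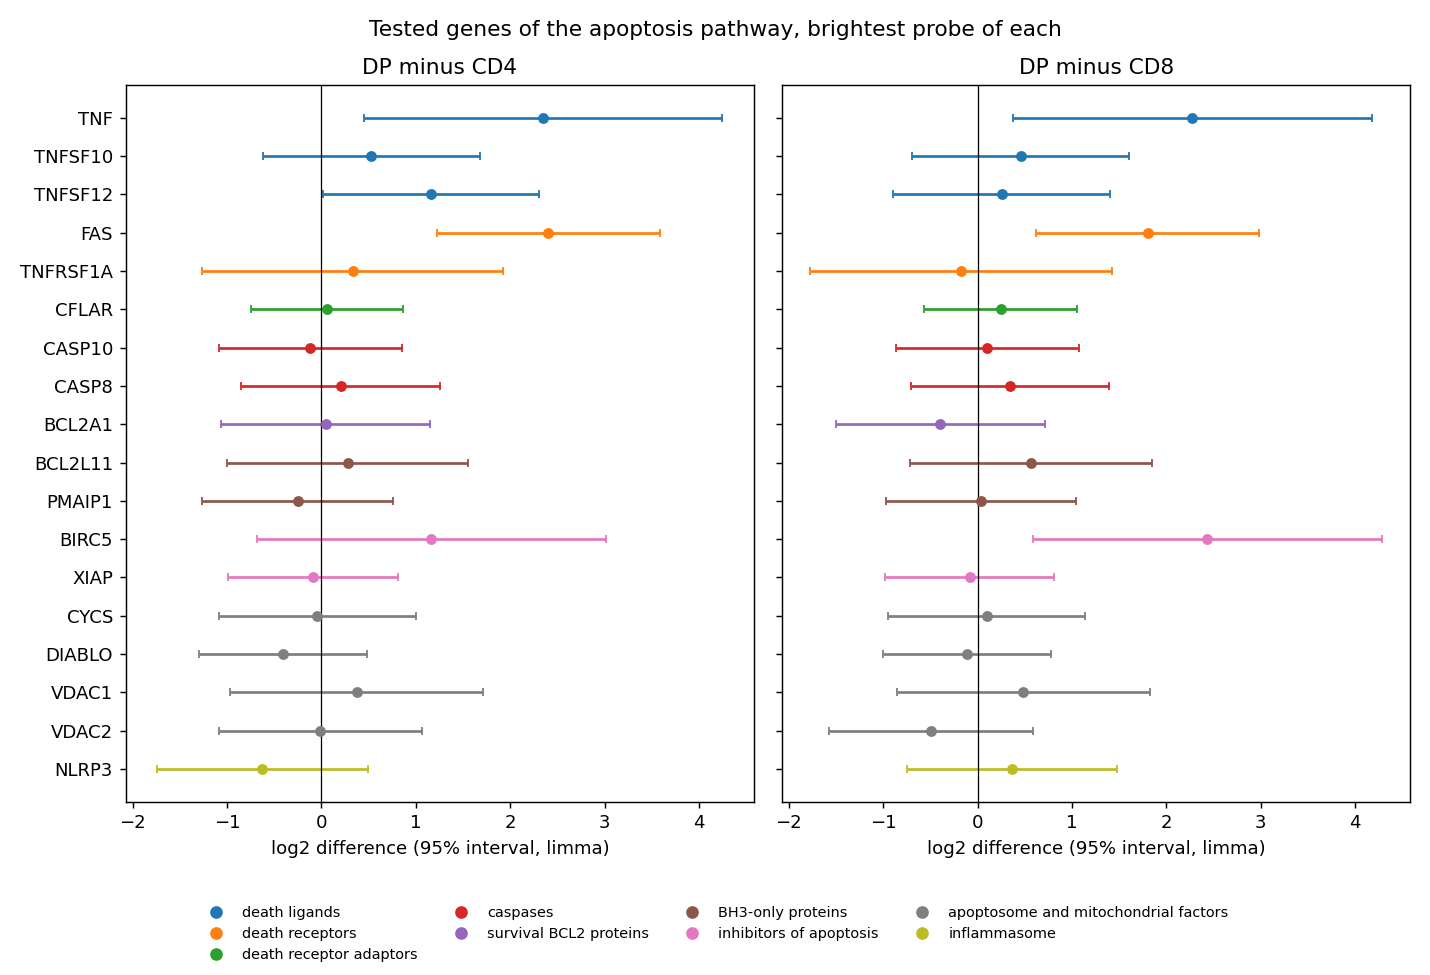
Difference of DP minus CD4 (left) and DP minus CD8 (right) on the log2 scale for the 18 tested genes of the apoptosis lists, by the probe highest on average, with limma's 95% interval as bars and colour for the list. FAS at 2.40 and 1.80 and TNF at 2.35 and 2.28 lie farthest to the right among ligands and receptors, and no gene passed the adjusted threshold.

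The named genes whose levels were most like those of FAS were ITGB1 (Pearson r = 0.99) and C14H10orf128 (r = 0.93), over the 9 arrays and among 1145 genes well above background on all of them. ITGB1 encodes the integrin β1 chain, an adhesion receptor that memory T cells are known to carry at a high level. It read 8.31, 7.92 and 7.78 in DP, as against 5.03, 6.24 and 4.56 in CD4 and 6.999, 6.51 and 4.62 in CD8 cells. Like FAS, ITGB1 had every DP array above the others, as did 1.6% of all tested probes, and its lowest CD8 value on replicate 3.

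For ITGB1, DP minus CD4 was 2.73 (SE 0.58), or 6.62-fold, with a limma adjusted p of 0.0767, and DP minus CD8 was 1.96 with an adjusted p of 0.303. Without CD8 replicate 3, limma gave DP minus CD4 an adjusted p of 0.0298, and DP minus CD8 was 1.25 with an adjusted p of 0.432. For DP minus CD4 the limma adjusted p was 0.0774 without CD8 replicate 1 and 0.194 with slide as a block. ITGB1 was picked for its likeness to FAS, so that its differences are a description. For CASP8 the most like were TOB1 (r = 0.94), an antiproliferative gene, and SLC30A6 (r = 0.91), a zinc transporter. TOB1 differed by 0.24 for DP minus CD4 and 0.66 for DP minus CD8, and SLC30A6 by -0.10 and 0.14, with limma adjusted p = 1 for all. The correlations are a description, since the points share arrays and scaling and the fractions themselves set part of the likeness.

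**Figure D4:**
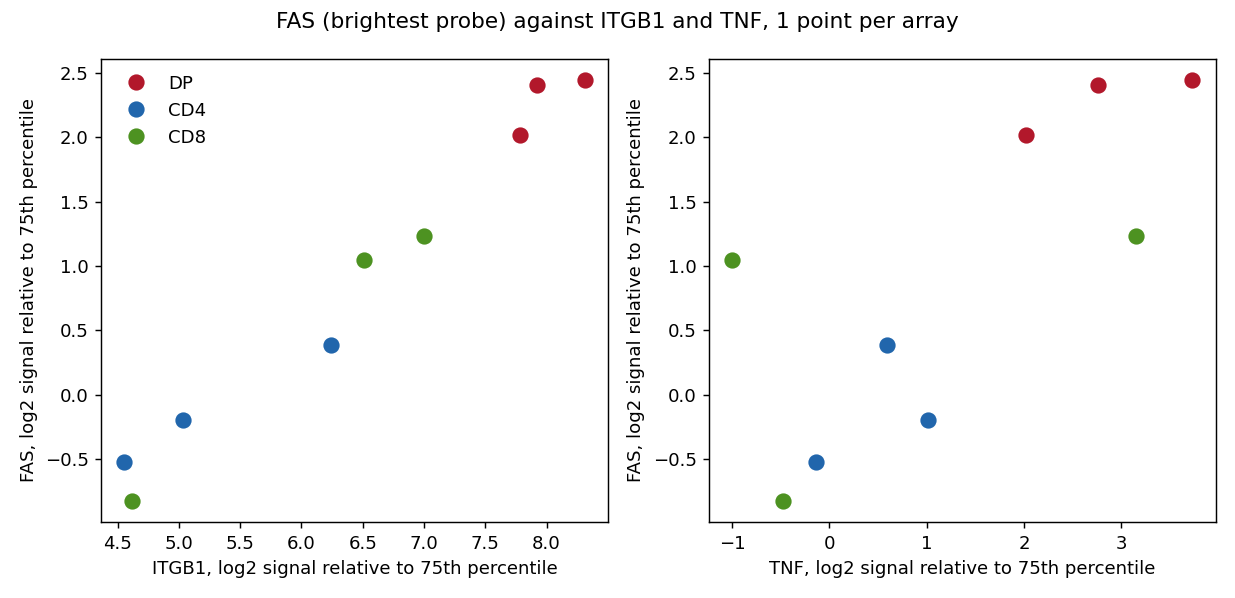
FAS (y axis, probe with the highest mean) against ITGB1 (left) and against the TNF probe with the highest mean (right), each as log2 signal relative to the 75th percentile, with 1 point per array coloured by fraction. FAS and ITGB1 order the arrays nearly alike (r = 0.99), with the 3 DP arrays at the upper right, while CD8 replicate 1 is at 3.15 for TNF and 1.24 for FAS.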

How the data were processed

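Per the file headers, the authors scanned the arrays with Agilent Feature Extraction 11.0.1.1, and the deposited processed signal is a linear intensity corrected for background and not scaled between arrays. A value table, deposited by the authors on a log2 scale with a median of 2.60 in its first column, served as an alternative. The sources used here do not give its program. Its CD8 columns 1, 2 and 3 best match scanner arrays 3, 1 and 2; the scanner numbering is used, and which is right is not known. Control and outlier spots (1 to 12 per array) were left out, spots of a probe were averaged, and log2 intensity minus the array's 75th percentile was fitted for all 9 arrays without a block (limma 3.58.1 with a variance trend, R 4.3.3, two-sided, at least 2 values per fraction). The script was tested on simulated data. Accessions named 6730 probes through RefSeq (Sscrofa11.1). No probe sequences or coordinates are given, since the files hold no sequence and name no build.

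The members and lists were chosen with earlier results of these data known. Text names all members, the gene of each list with the smallest F test p, called genes, and the 2 genes most like each tested member. Some listed genes are not reported here. Any other gene was chosen after its values were seen. Deviations of same-numbered arrays correlated at 0.266, 0.329 and 0.33 between DP and CD8, and at 0.31, -0.067 and 0.647 between DP and CD4. Arrays of different number were not compared in this way, so whether the numbers pair arrays is not known for any of the fractions. Precision is limited by 3 arrays per fraction. Figures used Python 3.11.15, matplotlib 3.10.9 and numpy 2.4.6.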

Additional observations from a re-analysis of the deposited data

How the results depend on the processing

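The results rest on 3 arrays per fraction, DP replicate 1 is alone on its slide, and dim probes lie close to background. FAS kept its sign in DP minus CD4 and DP minus CD8 under all 19 alternatives, at 1.24 to 2.65 (adjusted p 0.0285 to 0.476 in 17 tests) and 0.99 to 2.84 (adjusted p 0.125 to 0.778). The lowest values, 1.24 and 0.99, came from normexp and quantile normalisation, an alternative added after seeing the data because the files hold no mean signal, so that the median signal was used. The counts of member probes called stayed at 0 except in DP against CD4 (0 to 1 when leaving out single arrays) and in the replicate block. With replicate number as a block, whose numbers are not shown to pair arrays, FAS DP minus CD4 was 2.40 with a limma adjusted p of 0.0285. The member count was 1 there and 1 in the F test, and calls over all probes went to 144 and 212, in place of 47 and 98. When CD8 arrays were numbered as in the value table, an added alternative, the FAS adjusted p was 0.13 and no member probe was called. Calls over all probes were then 30 in DP against CD4, 21 in DP against CD8 and 50 in CD4 against CD8. With the scanner numbering, the block changed no other member call, and it also gave ITGB1 DP minus CD4 a limma adjusted p of 0.0218. Calls over all probes in DP against CD4, DP against CD8 and CD4 against CD8 were 43, 22 and 57 with the percentile over detected probes, 2, 44 and 47 after normexp, 46, 25 and 66 in the value table, 109, 87 and 97 without the filter, 12, 5 and 12 with detection on all arrays, 2, 2 and 38 with slide as a block, and 2 to 54, 1 to 51 and 31 to 83 when leaving out single arrays. The cause of these shifts was not tested.

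The median of member probes moved in DP minus CD4 to 0.22 after normexp, in DP minus CD8 to 0.27 after normexp and 0.34 without the filter, which adds dim probes, and in CD4 minus CD8 to 0.70 within slide 3. Within slide 3, FAS was 2.84 for DP minus CD8 and 0.47 for CD4 minus CD8. Leaving out single arrays gave FAS DP minus CD4 of 2.20 to 2.65. Signs turned for small differences. With slide as a block, DP minus CD4 was -0.34 for the third CASP8 probe, -0.063 for TOB1, -0.15 for BCL2A1 and 0.22 for CASP10, and CD4 minus CD8 was 0.21 for the first TNF probe and -0.11 for CASP10. After normexp, TNFRSF1A was 0.19 for DP minus CD8 and CASP10 0.036 for DP minus CD4. In the value table, TNFRSF1A was 0.18 for DP minus CD8 and the second CASP8 probe -0.056 for CD4 minus CD8. With the percentile over detected probes, the first TNF probe was 0.0068 for CD4 minus CD8.

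Leaving out single arrays turned these signs too. For DP minus CD4 the ranges were -0.0125 to 0.53 for the first and -0.21 to 0.87 for the third CASP8 probe, -0.27 to 0.33 for VDAC2, -0.30 to 0.19 for SLC30A6, -0.073 to 0.79 for TOB1, -0.34 to 0.77 for BCL2L11, -0.24 to 0.53 for BCL2A1, -0.27 to 1.17 for TNFRSF1A, -0.070 to 0.31 for CFLAR and -0.52 to 0.12 for CASP10. For DP minus CD8 they were -0.98 to 0.29 for the third CASP8 probe, -0.16 to 0.62 for NLRP3, -0.39 to 0.76 for TNFSF12, -0.041 to 0.39 for SLC30A6, -0.67 to 0.052 for BCL2A1, -0.73 to 0.60 for TNFRSF1A and -0.30 to 0.55 for CASP10. For CD4 minus CD8 they were -0.11 to 0.49 for the first and -0.12 to 0.36 for the second CASP8 probe, -0.77 to 0.27 for the second FAS probe, -0.85 to 1.23 for the first and -1.13 to 0.22 for the second TNF probe, -0.047 to 0.47 for SLC30A6, -0.12 to 0.97 for TOB1, -0.21 to 0.91 for BCL2L11, -1.34 to 0.094 for TNFRSF1A, -0.0615 to 0.34 for CFLAR and -0.0092 to 0.67 for CASP10.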
